A study of Mus musculus with 96 samples.

Results

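The microRNA hairpins mir-148a, mir-148b and mir-152 are the mouse members of the miR-148/152 family, and they are described here in the liver of mice of an Htt CAG repeat series. They were taken by their hairpin IDs in the deposited count table, MI0000550 for mir-148a, MI0000617 for mir-148b and MI0000174 for mir-152, without use of any measured value, and all 3 of the 1187 hairpins in the table were found. Each was above 0 in all 96 libraries and passed the filter on low values at both ages. The heterozygous knock-in mice, labelled as strain C57BL/6 and bred to C57BL/6J females in the study's methods, combined 1 wild-type Htt allele with 1 allele whose human HTT exon 1 held a CAG repeat of 20 (Q20), 50 (Q50), 92 (Q92) or 140 (Q140). Expansion of this repeat in the human huntingtin gene underlies Huntington's disease. Their wild-type (WT) littermates were taken from 2 of the lines, Q20 and Q50. At 6 months and at 10 months, 4 females and 4 males were sequenced for each of these 6 genotypes and lines, which gave 24 groups of 4. The WT and Q20 mice were the controls, as in the study, and no WT mice of the Q92 or Q140 lines were sequenced in these libraries, so for these alleles genotype and line cannot be told apart. The sample labels give Q92 mice as housed with Q92 mice, Q140 mice with Q140 mice, and Q20 and Q50 mice with WT mice, whereas the study's methods describe mixed cages of knock-in and WT mice without naming lines, so the cage mates of the Q92 and Q140 mice are uncertain. A small RNA library was made from whole liver, and in such bulk samples fewer cells of a type and less RNA per cell cannot be told apart.

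MicroRNAs are short RNAs cut from a hairpin precursor. A mature microRNA guides Argonaute proteins to messenger RNAs that match its seed, the bases 2 to 8 from its 5′ end, and these messenger RNAs are then less translated or less stable. Members of a family with the same seed can bind the same sites, so their combined amount and the share of each member bear on which sites are occupied. In liver, miR-148a is among the abundant microRNAs of hepatocytes and is known to act on messenger RNAs of lipid handling, such as those of the LDL receptor and of the cholesterol exporter ABCA1. In human cells, miR-148a and miR-152 are known to act on the messenger RNA of the DNA methyltransferase DNMT1.

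The 3p arms of the 3 hairpins carry the family's seed. They are printed 5′ to 3′ from RefSeq (GRCm38.p6) with the seed in capitals, to show that the members differ only outside it.
miR-148a-3p: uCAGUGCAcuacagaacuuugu
miR-148b-3p: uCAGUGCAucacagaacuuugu
miR-152-3p: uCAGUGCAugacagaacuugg

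Among the 1738 mature mouse microRNAs of the RefSeq table, these 3 alone had the seed CAGUGCA. Counted from the 5′ end of miR-148a-3p, miR-148b-3p differed by C9U and U10C. Against miR-148a-3p, miR-152-3p differed by C9U, U10G and U20G and was 1 base shorter, with 21 bases against 22. The 5p arms of mir-148a and mir-148b shared another seed, AAGUUCU, which was found in 2 mature microRNAs of the table, and that of mir-152 was AGGUUCU. The deposited counts are per hairpin, so reads of the 3p and 5p arms are summed in every value below. The hairpins themselves, the units that were counted, are printed next with the 3p arm in capitals.
mir-148a: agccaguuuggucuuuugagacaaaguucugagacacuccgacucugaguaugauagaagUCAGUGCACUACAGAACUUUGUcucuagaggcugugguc
mir-148b: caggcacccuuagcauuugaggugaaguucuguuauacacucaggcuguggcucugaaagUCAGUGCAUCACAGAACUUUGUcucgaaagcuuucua
mir-152: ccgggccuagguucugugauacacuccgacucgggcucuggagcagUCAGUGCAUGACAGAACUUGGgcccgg

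On GRCm38, the assembly also called mm10 on which the study placed its reads, mir-148a lay on chromosome 6 from 51269812 to 51269910 on the minus strand. It overlapped no other gene of GENCODE M21, and the nearest protein-coding gene, Nfe2l3, was 162760 bases away. The mir-148b hairpin lay on chromosome 15 from 103285125 to 103285221 on the plus strand, inside the gene Copz1 on the same strand. It was intronic in all 4 Copz1 transcripts that spanned it. The mir-152 hairpin lay on chromosome 11 from 96850393 to 96850465 on the plus strand, intronic in all 3 spanning transcripts of Copz2 on the same strand. Copz1 and Copz2 encode the zeta subunits of the coatomer, the coat of vesicles that travel within the Golgi and back to the endoplasmic reticulum. The lengths implied by the deposited counts and FPKM were 99 nt for mir-148a, 97 nt for mir-148b and 73 nt for mir-152, the same as the RefSeq hairpins.

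Library totals, in estimated counts, lay between 2195050 and 6662670. Males had the lower median total, 4259130 against 5149570 in females at 6 months and 5186570 against 5837610 at 10 months. At 10 months 4 libraries were left out of the tests for low connectivity to the other libraries of that age: Q92 female replicate 1, Q92 male replicate 2 and replicate 3 of the males of both WT lines. This left 48 libraries at 6 months and 44 at 10 months. No library of a group held the same values as another in 144 pairs. The replicates were separate mice, and the p-values measure the spread between them. Under the study's rules for choosing animals, mice of both sexes, and knock-in and WT mice of a line, could share a litter. Litter was not a term in the tests.

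The mir-148a hairpin made up nearly the whole of the family in every liver. It had 73286 ± 10805 CPM (estimated counts scaled to a common library total, SD over 96 libraries), the third highest mean of the 1187 hairpins, and took 7.36% of all counts. Its CPM ran from 51837 to 131502. The mir-148b hairpin had 1068 ± 140 CPM and ranked 58, with a range of 752 to 1469. The mir-152 hairpin had 292 ± 51.8 CPM and ranked 91, with a range of 204 to 427. Of the counts of the 3 hairpins together, mir-148a held 98.2% ± 0.236 (SD), mir-148b 1.45% ± 0.232 and mir-152 0.393% ± 0.0597. Per hairpin length, on the scale of the deposited FPKM, mir-148a was 68.1 ± 12.1 times as high as mir-148b (SD, n = 96), and mir-148b was 2.85 ± 0.627 times as high as mir-152. The lowest ratio in any library was 49.6 for the first pair and 1.77 for the second, so the order of the 3 levels per length was the same in all 96 livers.

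The counts of mir-148a and mir-148b were not fully separate. The deposited value of mir-148a was not a whole number in 94 of 96 libraries and that of mir-148b in 95, at a tolerance of 0.0001, while that of mir-152 was whole in all. The sum of mir-148a and mir-148b was whole within 0.05 in 96 of 96 libraries, where mir-148a alone was so in 25 and mir-148b alone in 27. A part of the reads was thus divided between these 2 hairpins. In each library the mir-148b value lay at or slightly above a whole number and that of mir-148a at or slightly below one. The mir-148b value furthest above was 6680.1733, in Q50 male replicate 3 of 10 months, beside 347606.8125 for mir-148a. How many reads were divided is not stated. Their weight in the level of mir-148b, the smaller of the pair, was not tested. The longest stretch with identical letters in both was 15 bases, against 12 between mir-148a and mir-152 and 11 between mir-148b and mir-152.

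Across the 24 groups the levels spanned a narrow range. The group means of mir-148a ran from 60746 ± 4993 CPM in Q92 males at 10 months to 88680 ± 29662 CPM in Q92 females at 6 months (SD, n = 4 each), a ratio of 1.46. The 4 Q92 females at 6 months had 63337, 77618, 82263 and 131502 CPM, so that 1 mouse, replicate 2, set the highest mean. That mouse had the highest mir-148a level of all 96. For mir-148b the group means ran from 900.2 ± 59.1 CPM in WT females of the Q20 line at 10 months to 1225 ± 143 CPM in the females of the same line at 6 months, a ratio of 1.36. For mir-152 they ran from 229 ± 17.9 CPM in WT males of the Q20 line at 6 months to 378 ± 26.2 CPM in WT females of the Q50 line at 10 months, a ratio of 1.65. With the 24 means of a hairpin in order, none of the 23 steps between neighbours was larger than the larger of the 2 SDs, for any of the 3 hairpins. Steps between means that were sorted first are small by construction, so this is no test of differences between groups. The upper 12 places of the order were taken by the 12 female groups for mir-152, by 11 female groups and 1 male group for mir-148a, and by 4 female groups for mir-148b.

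**Figure D1:**
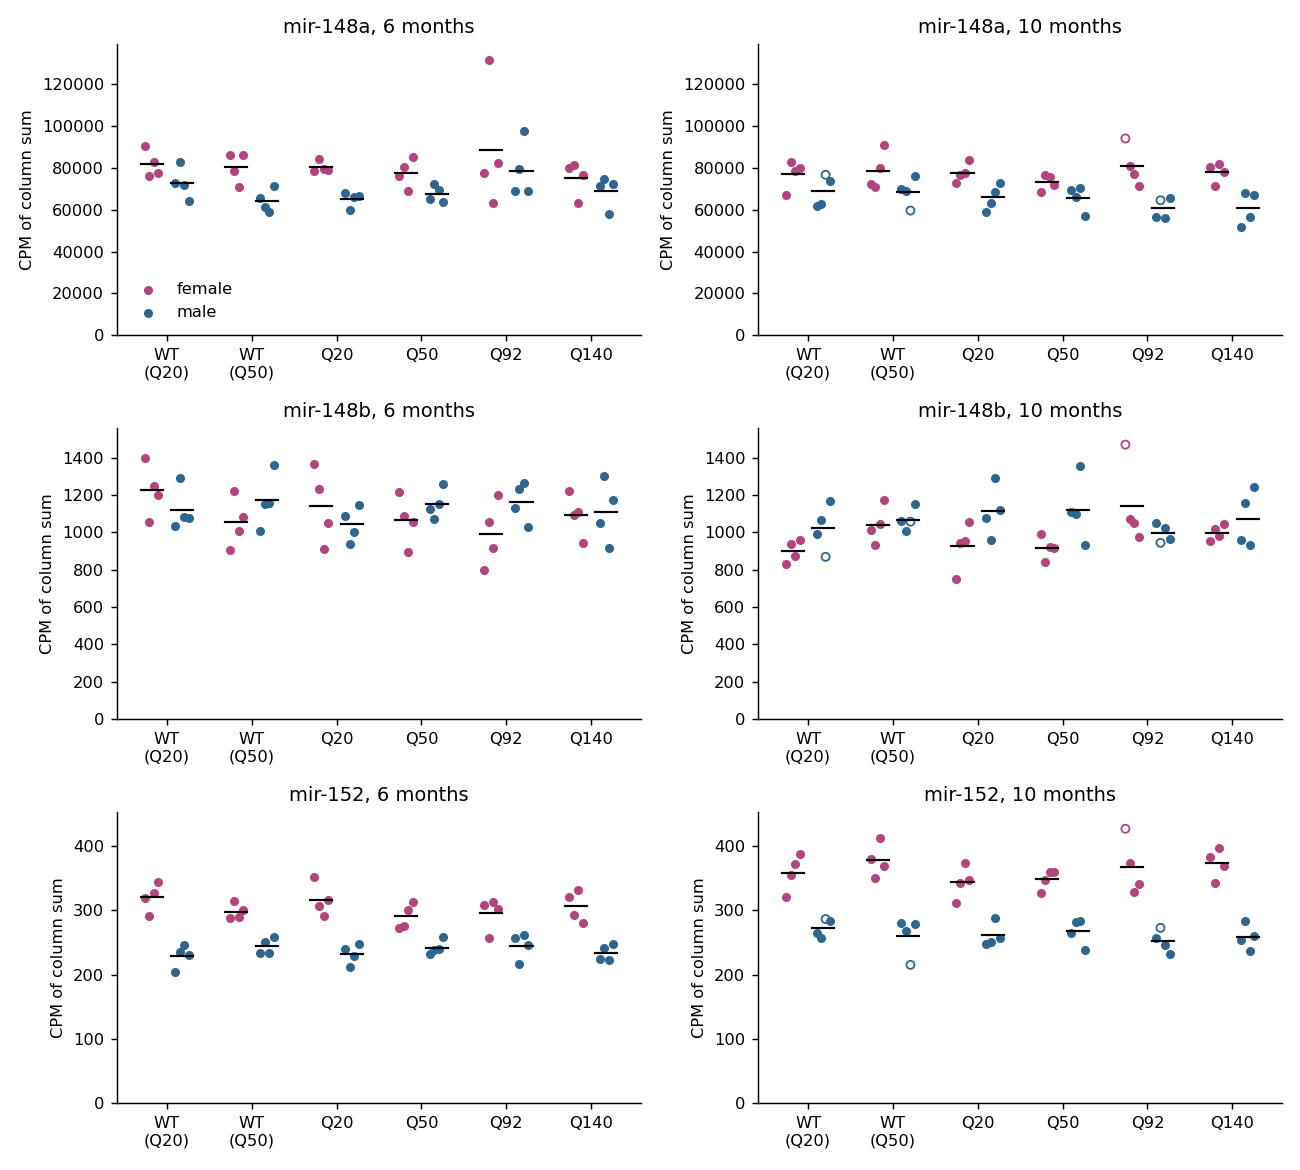
Level of each hairpin in CPM (linear axis from 0) in the 4 mice of each group, by genotype or line, sex and age. Points are mice, open points are the 4 libraries left out of the tests, and lines are means of 4. Female mir-152 means, from 291 to 378 CPM, lie above all male means, from 229 to 273 CPM.

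Group means of mir-148a in females at 6 months were 81805 ± 6543 CPM in WT of the Q20 line, 80460 ± 7494 in WT of the Q50 line, 80433 ± 2730 in Q20, 77791 ± 6990 in Q50 and 75337 ± 8205 in Q140, beside the Q92 mean given above. In males of that age they were 72843 ± 7582, 64294 ± 5419, 65253 ± 3620, 67645 ± 3974, 78774 ± 13627 and 69064 ± 7387 CPM in the order WT of the Q20 line, WT of the Q50 line, Q20, Q50, Q92 and Q140. At 10 months the females, in that order, had mir-148a means of 77123 ± 6979, 78599 ± 9266, 77751 ± 4471, 73125 ± 3761, 80916 ± 9633 and 78112 ± 4614 CPM. The Q92 mean holds the left-out replicate 1, at 94158 CPM, and without it was 76502 ± 4721 CPM (n = 3), above Q50 but below the other 4 groups. The males of 10 months had mir-148a means of 68838 ± 7552, 68661 ± 6900, 65963 ± 6007, 65779 ± 6055, 60746 ± 4993 and 60883 ± 7866 CPM in the same order.

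For mir-148b the females of 6 months had means of 1225 ± 143, 1053 ± 133, 1139 ± 200, 1063 ± 130.2, 993 ± 173 and 1091 ± 116 CPM in the same order. The males of 6 months had 1122 ± 113, 1170.5 ± 145, 1043 ± 91.1, 1151 ± 79.3, 1164 ± 107 and 1110.1 ± 167 CPM. Female means of mir-148b at 10 months were 900.2 ± 59.1, 1038 ± 101, 926 ± 127, 917 ± 62.3, 1142 ± 222 and 998 ± 40.3 CPM. The 222 CPM of SD among Q92 females came with the left-out replicate 1, at 1469 CPM, the highest mir-148b level of all libraries, and the mean of the other 3 mice was 1033 ± 48.9 CPM. The males of 10 months had 1023 ± 125, 1068 ± 60.7, 1113 ± 137, 1122 ± 175, 997 ± 50.1 and 1073 ± 151 CPM of mir-148b.

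For mir-152 the females of 6 months had means of 321 ± 21.9, 298 ± 12.4, 316 ± 25.1, 291 ± 19.7, 295 ± 25.5 and 307 ± 24.04 CPM in the same order, and the males 229 ± 17.9, 244 ± 12.5, 232 ± 15.7, 242 ± 11.1, 245 ± 20.2 and 234 ± 12.8 CPM. At 10 months the females had 359 ± 28.4, 378 ± 26.2, 344 ± 25.0, 348 ± 15.0, 368 ± 43.8 and 373 ± 23.5 CPM. The males of that age had 273 ± 14.5, 261 ± 30.8, 261 ± 18.6, 267 ± 20.7, 252 ± 17.1 and 259 ± 19.6 CPM. In each of these 12 pairs of a genotype and an age, the male mean of mir-152 was below the female mean.

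The 3 hairpins did not differ between the sexes in the same way. The mir-152 hairpin was lower in males at both ages, mir-148a was also lower in males at both ages but by less, and mir-148b was higher in males at 10 months. At 6 months mir-152 had 258 to 351 CPM in 24 females, with a median of 305, and 204 to 262 CPM in 24 males, with a median of 239. All 24 males were below the female mean, and 3 of them lay within the female range. At 10 months mir-152 had 312 to 413 CPM in 23 females, with a median of 359, and 232 to 288 CPM in 21 males, with a median of 260.2. The ranges of the sexes did not overlap at 10 months, which held for 4.44% of the 383 hairpins tested at that age, and at 6 months for 3.74% of 374.

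The fitted log2 difference of mir-152, male minus female, was -0.32 ± 0.03 (SE) at 6 months with an adjusted p of 5.52e-13, and -0.42 ± 0.03 at 10 months with an adjusted p of 1.65e-16 (edgeR quasi-likelihood test, Benjamini-Hochberg). Relative to females these are changes of -20.1% and -25.4%. A difference between the sexes, in either direction, was called at adjusted p under 0.05 for 38.2% of the hairpins at 6 months and for 45.4% at 10 months, so a call by itself did not set a hairpin apart. By its p-value mir-152 ranked 16 of 374 at 6 months and 12 of 383 at 10 months. With the 4 males set against the 4 females of each genotype, left-out libraries included, the ranges of mir-152 did not overlap in 5 of 6 genotypes at 6 months and in 6 of 6 at 10 months. Over all tested hairpins this was so in 16% of such pairs at 6 months and in 19.1% at 10 months. The ratio of the male to the female mean of mir-152 lay between 0.714 and 0.833 at 6 months and between 0.685 and 0.769 at 10 months.

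**Figure D2:**
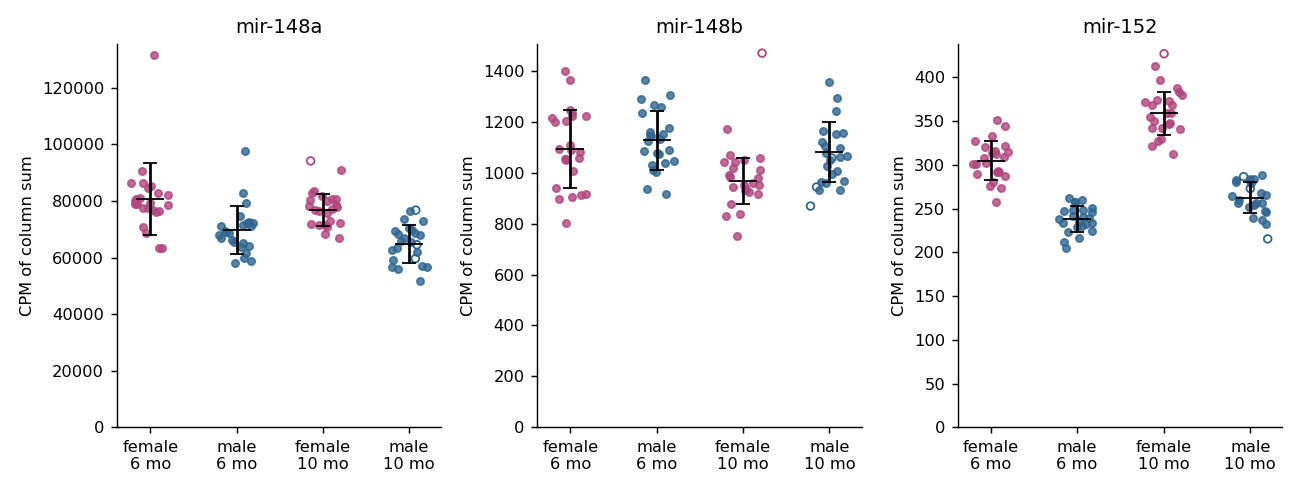
Level of each hairpin in CPM (linear axis from 0) by sex and age. Points are mice, open points are libraries left out of the tests, and bars are mean ± SD of the others (24, 24, 23 and 21 mice). The mir-152 levels of females and males of 10 months do not overlap, while those of mir-148b do at both ages.

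The abundant member, mir-148a, had 63337 to 131502 CPM in the 24 females of 6 months, with a median of 79228, and 58186 to 97835 CPM in the 24 males, with a median of 68941. The ranges overlapped in most mice, with 20 males inside the female range, yet 22 of 24 males were below the female mean. Females of 10 months had 67013 to 91099 CPM with a median of 77137, and the males 51837 to 76393 CPM with a median of 66004, and 21 of 21 males were below the female mean. The log2 difference was -0.18 ± 0.06 (SE) at 6 months, with an edgeR adjusted p of 0.0119, and -0.22 ± 0.04 at 10 months, with an edgeR adjusted p of 2.00e-06. In percent of the female level these are -11.6% and -14.3%. The male mean was the lower one in 6 of 6 genotypes at each age. Lower levels in males were called for 15.8% of all hairpins at 6 months and for 23.2% at 10 months.

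For mir-148b the sexes were not told apart at 6 months. The females had 801 to 1400 CPM with a median of 1084, and the males 915 to 1362 CPM with a median of 1126, and all 24 males lay within the female range. The log2 difference at 6 months was 0.07 ± 0.05 (SE, 95% interval -0.020 to 0.17) with an edgeR adjusted p of 0.227. At 10 months the females had 752 to 1172 CPM with a median of 959, and the males 931 to 1355 CPM with a median of 1065. The ranges overlapped, and 17 of 21 males were above the female mean. The log2 difference of mir-148b at 10 months was 0.18 ± 0.04, 13.6% higher in males, with an edgeR adjusted p of 4.32e-04, beside higher levels in males in 22.2% of all hairpins. By genotype, left-out libraries included, the male mean of mir-148b was the higher one in 4 of 6 genotypes at 6 months and in 5 of 6 at 10 months, with a ratio of male to female mean from 0.915 to 1.17 and from 0.873 (Q92) to 1.22. With all 48 libraries of 10 months kept, the log2 difference at that age was 0.12 with an edgeR adjusted p of 0.0484. The difference of mir-148b between the ages in its sex effect was not called (interaction 0.11 ± 0.07, edgeR adjusted p 0.478), nor was that of mir-152 (-0.10 ± 0.04, edgeR adjusted p 0.242) or of mir-148a (-0.03 ± 0.08, edgeR adjusted p 0.928).

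The sample labels carry a tag, L5 to L8, and do not say what it stands for. It is read here as the lane and was taken as the batch. Within these lane tags all these differences between the sexes kept their direction, on fewer libraries. For mir-152 the log2 difference was -0.31 in L6 and -0.35 in L7 at 6 months and -0.37 in L6 at 10 months, all called, and it was -0.50 in L5 (edgeR adjusted p 0.134) and -0.36 in L7 (0.231) at the later age. For mir-148a it was -0.28 in L6 and -0.14 in L7 at 6 months (edgeR adjusted p 0.375 and 0.151). At 10 months it was -0.53 in L5, with an edgeR adjusted p of 0.0428, -0.14 in L6, with 0.0801, and -0.31 in L7, with 0.291. For mir-148b at 10 months it was 0.27 in L6, with an edgeR adjusted p of 0.00764, but 0.022 in L5 and 0.09 in L7, with 0.951 and 0.791. The lanes of 10 months held 24 libraries in L6, 12 in L5 and 8 in L7. No value was computed in L8, which held 3 libraries of 6 months. The only library of 10 months with this tag was a left-out one, WT male replicate 3 of the Q50 line.

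Ratios within a library do not depend on the library total. The log2 ratio of mir-152 to mir-148b was -1.83 ± 0.19 (SD) in 24 females and -2.24 ± 0.12 in 24 males at 6 months, and -1.43 ± 0.13 in 23 females and -2.04 ± 0.10 in 21 males at 10 months. At 10 months it ran from -1.67 to -1.24 in females and from -2.26 to -1.91 in males, with no overlap. Male minus female, the log2 ratio differed by -0.40 at 6 months and by -0.61 at 10 months, which is 1.32-fold and 1.53-fold lower in males, and all 24 and all 21 males were below the female mean. Both had a two-sided permutation p of 1e-05, the smallest that 100000 resamples can give, and an adjusted p of 1.5e-05 over the 6 ratio tests.

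The log2 ratio of mir-148b to mir-148a was -6.21 ± 0.26 in females and -5.95 ± 0.15 in males at 6 months, 0.26 higher in males (permutation p 4.00e-05, adjusted 4.80e-05). At 10 months it was -6.32 ± 0.12 in 23 females and -5.91 ± 0.13 in 21 males, 0.41 higher or 1.33-fold (permutation p 1e-05, adjusted 1.5e-05). In this ratio the female mean was exceeded by 23 of 24 males at the younger age and by 21 of 21 at the older. The mir-152 to mir-148a ratio differed least, by -0.15 (male minus female) at 6 months (permutation p 0.0211, adjusted 0.0211) and -0.20 at 10 months (permutation p 1e-05, adjusted 1.5e-05). Here 20 of 24 and 20 of 21 males were below the female mean. Reads divided between mir-148a and mir-148b enter the ratios that involve either of them, and their part in these differences was not tested.

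**Figure D3:**
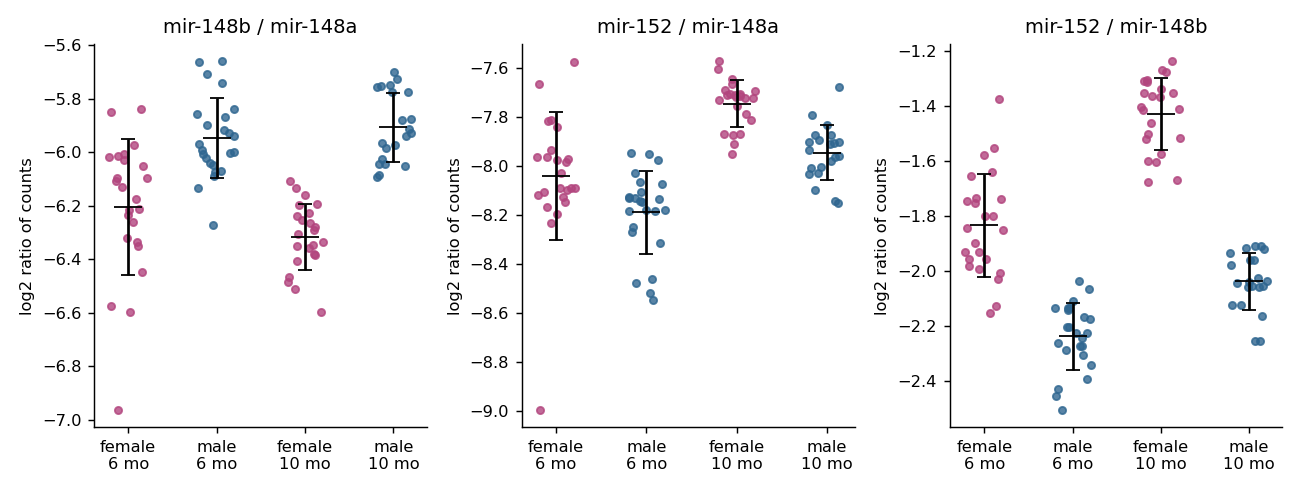
Log2 ratio of estimated counts between 2 hairpins of the same library, by sex and age, for the 92 libraries kept. Points are mice and bars are mean ± SD. The mir-152 to mir-148b ratio of males differs from that of females by -0.40 at 6 months and -0.61 at 10 months.

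Between the ages, mir-148a and mir-148b were lower and mir-152 was higher at 10 months than at 6 months. In CPM scaled by TMM over both ages, mir-148a had a median of 83692 in females and 70774 in males at 6 months, against 73319.7 and 63337 at 10 months. The corresponding medians of mir-148b were 1163 and 1124 CPM against 908 and 1073 CPM, and those of mir-152 were 329 and 241 CPM against 341 and 259 CPM. On this scale 39 of 44 mice of 10 months were below the 6-month mean of their sex for mir-148a and 40 of 44 for mir-148b, and 34 of 44 were above it for mir-152. The individual ranges overlapped for all 3 hairpins in both sexes.

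The log2 difference, 10 months minus 6 months, was -0.21 ± 0.04 (SE) for mir-148a, with an edgeR adjusted p of 5.13e-06. It was -0.24 ± 0.03 for mir-148b, with 2.57e-09, and 0.07 ± 0.02 for mir-152, with 0.00231. In percent of the 6-month level these are -13.4%, -15.6% and 4.82%. Age was called for 58.6% of 408 hairpins, 31.6% higher and 27.0% lower at 10 months. Scaling by column totals in place of TMM moved the median of all hairpins by 0.12 on the log2 scale, and the age differences were then -0.08 for mir-148a, -0.12 for mir-148b and 0.19 for mir-152, all still called by edgeR. Without Q20 male replicate 4 of 10 months, that of mir-152 was 0.039 with an edgeR adjusted p of 0.0840. Whether libraries of both ages were made together is not stated in the labels or methods read here, and the age fit had no lane term, so an effect of age and one of the library set cannot be told apart. Within a library, the log2 ratio of mir-152 to mir-148b had a mean of -2.04 ± 0.26 (SD, n = 48) at 6 months and -1.72 ± 0.33 (n = 44) at 10 months, and that of mir-152 to mir-148a -8.11 ± 0.23 and -7.84 ± 0.14. The ratio of mir-148b to mir-148a was -6.08 ± 0.24 and -6.12 ± 0.24. The SDs of these ratios hold both sexes. By sex, the mean log2 ratio of mir-148b to mir-148a went from -6.21 to -6.32 in females and from -5.95 to -5.91 in males. Changes of the ratios with age were not tested.

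**Figure D4:**
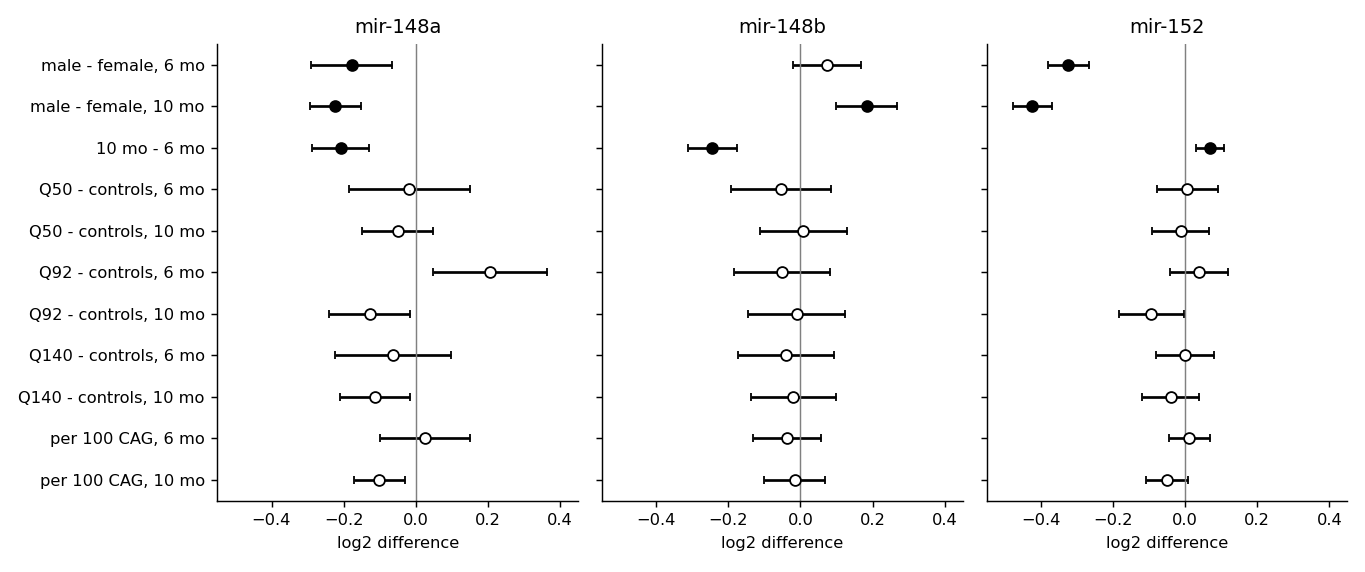
Fitted log2 difference of each hairpin in 11 comparisons, with its 95% interval. Filled points have an edgeR adjusted p under 0.05, open points do not. The filled points are those of sex and age (mir-148b only at 10 months for sex), and none of the comparisons by genotype or CAG length is filled.

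The question put to the knock-in alleles was whether the family's levels followed the CAG repeat of Htt. In 21 comparisons by genotype, line or CAG length, 0 of 63 tests of the 3 hairpins were called by edgeR or by DESeq2, and 8 (12.7%) had an unadjusted edgeR p under 0.05. Over all hairpins in the same comparisons, 542 of 7928 tests (6.84%) had such a p. At 10 months 65 of 383 hairpins did so for Q92 and, counted separately, 65 of 383 for CAG length. The 63 tests share mice and controls and are not independent. Of all hairpins tested against controls, 0.267% were called for Q92 at 6 months, 1.04% for Q92 (0.783% higher and 0.261% lower) and 1.31% for Q140 at 10 months, and 2.09% for CAG length at 10 months (1.83% higher and 0.261% lower). For Q50 at either age, and for Q140 and CAG length at 6 months, the share was 0%.

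At 6 months mir-148a had 58768 to 90624 CPM in 24 controls, with a median of 74426. It had 63736 to 85293 CPM (median 70908) in 8 Q50 mice, 63337 to 131502 CPM (median 78498) in 8 Q92 mice and 58186 to 81228 CPM (median 73374) in 8 Q140 mice. Each of these ranges overlapped that of the controls. Of the Q92 mice 6 of 8 were above the mean of the controls of their sex, and the log2 difference of mir-148a was 0.21 ± 0.08 (SE), with an edgeR p of 0.0145 and an adjusted p of 0.492. Without Q92 female replicate 2, the mouse at 131502 CPM, it was 0.070. The differences of Q50 and Q140 from controls were -0.02 ± 0.09 and -0.06 ± 0.08.

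At 10 months mir-148a had 59078 to 91099 CPM in 22 controls, with a median of 72842. It had 57166 to 76510 CPM (median 69974) in 8 Q50 mice, 56145 to 80874 CPM (median 68526) in 6 Q92 mice and 51837 to 81909 CPM (median 69809) in 8 Q140 mice. The ranges overlapped throughout, and 6 of 8 Q50, 5 of 6 Q92 and 4 of 8 Q140 mice were below the mean of the controls of their sex. The log2 differences from controls were -0.05 ± 0.05 for Q50, -0.13 ± 0.06 for Q92 and -0.11 ± 0.05 for Q140, with edgeR adjusted p of 0.9997, 0.251 and 0.321. Along CAG length, with WT set at 7 repeats, mir-148a changed by -0.10 ± 0.04 on the log2 scale per 100 repeats at 10 months (95% interval -0.17 to -0.031, edgeR p 0.00715, adjusted p 0.130), and by 0.03 ± 0.06 at 6 months (95% interval -0.10 to 0.15, edgeR adjusted p 0.995). The difference between these slopes was -0.19 ± 0.08 (edgeR adjusted p 0.413), but -0.11 without Q92 female replicate 2 of 6 months and -0.098 with column totals. Scaled by column totals, the slope at 10 months was -0.07 with an edgeR adjusted p of 0.361.

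The mir-148b level was close to that of the controls under each allele. At 6 months the controls had 904 to 1400 CPM with a median of 1085, with medians of 1105 for Q50, 1092 for Q92 and 1099.7 for Q140 mice. The controls of 10 months had 752 to 1292 CPM with a median of 1008, and the medians were 961, 1038 and 1000.01 in Q50, Q92 and Q140 mice. The fitted log2 differences of mir-148b from controls lay between -0.05 and 0.0084 over the 6 comparisons, each with an SE of 0.06 to 0.07. The widest 95% interval at 6 months, that of Q50, ran from -0.19 to 0.09, and at 10 months that of Q92 ran from -0.14 to 0.12. Per 100 repeats the slope of mir-148b was -0.04 ± 0.05 at 6 months and -0.02 ± 0.04 at 10 months.

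For mir-152 the controls of 6 months had 204 to 351 CPM with a median of 273, with medians of 266 for Q50, 259.8 for Q92 and 264 for Q140 mice. At 10 months the controls had 247 to 413 CPM with a median of 317, and the medians were 306, 293 and 313. These ranges hold both sexes and are wide for that reason. Against the mean of the controls of their sex, 4 of 8 mice of each of the 3 alleles were above at 6 months, and at 10 months 2 of 8 Q50, 1 of 6 Q92 and 4 of 8 Q140 mice were above. The fitted log2 differences of mir-152 were 0.0064 ± 0.04 for Q50, 0.04 ± 0.04 for Q92 and 0.00041 ± 0.04 for Q140 at 6 months, and -0.01 ± 0.04, -0.09 ± 0.05 and -0.04 ± 0.04 at 10 months. The largest of these in size, that of Q92 at 10 months, had an edgeR p of 0.0490 and an adjusted p of 0.289. Per 100 repeats the slope was 0.01 ± 0.03 at 6 months and -0.05 ± 0.03 at 10 months. The difference of these slopes was -0.10 ± 0.04, with an edgeR adjusted p of 0.413. It was -0.012 with column totals, -0.038 without the WT libraries and as small as -0.053 with 1 library left out.

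When the signed Z of both ages were added and rescaled to unit variance, the largest value in size was that of mir-148a in Q140, with a Z of -2.08, an edgeR p of 0.0373 and an adjusted p of 0.623. For CAG length the combined Z was -1.62 for mir-148a, -0.82 for mir-148b and -0.90 for mir-152. Against WT mice of their own line, mir-148a differed by 0.0011 ± 0.10 in Q20 at 6 months and by 0.00070 ± 0.06 at 10 months, and in Q50 by 0.05 ± 0.10 and -0.11 ± 0.06. Between the WT mice of the Q50 and the Q20 line, mir-148b differed by 0.14 ± 0.08 at 10 months and mir-152 by 0.09 ± 0.05, each with an edgeR adjusted p of 0.485, and mir-148a by 0.08 ± 0.07. At 6 months the same WT comparison gave -0.10 ± 0.10 for mir-148a, -0.06 ± 0.08 for mir-148b and 0.03 ± 0.05 for mir-152, none of them called by edgeR. The sex difference did not change with CAG length past the threshold. That interaction was -0.12 ± 0.07 for mir-148a at 10 months, per 100 repeats, with an edgeR adjusted p of 0.985.

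After the mean of each group was removed, mir-148b varied among mice in part with each other member, but mir-148a and mir-152 hardly varied together. Over the 92 libraries kept, the Pearson correlation of log2(CPM + 1) was 0.477 between mir-148a and mir-148b, 0.456 between mir-148b and mir-152 and 0.0874 between mir-148a and mir-152. Among 365 other hairpins, the one most like mir-148a was MI0000144 (0.661), the one most like mir-148b was MI0000233 (0.744) and the one most like mir-152 was MI0000588 (0.621). These have no name in the reference tables used here. The median correlation with all hairpins was -0.024 for mir-148a, 0.058 for mir-148b and 0.12 for mir-152. By correlation with mir-148a, mir-148b ranked 5 and mir-152 ranked 101 of 365. By correlation with mir-148b, mir-148a ranked 14 and mir-152 ranked 20. By correlation with mir-152, mir-148b ranked 22 and mir-148a ranked 209. The points share library totals, and mir-148a and mir-148b also share reads. The part of either in these correlations was not tested. These correlations are descriptions of the libraries.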

How the data were processed

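Per the study's methods, small RNA enriched from total liver RNA was sequenced on an Illumina HiSeq (single-end, strand-specific). Reads were clipped, aligned to mm10 with STAR and counted with HTSeq. The submitters' processing notes name CASAVA 1.8.2. The authors deposited estimated counts per hairpin, with fractional values of unstated origin, and FPKM, from which hairpin lengths were taken. The design had assumed whole counts, so the estimated counts were rounded before testing. Groups came from the labels.

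The tests took in hairpins that reached 1 CPM in 8 or more libraries and used edgeR 4.0.16 in R 4.3.3 (quasi-likelihood, TMM, Benjamini-Hochberg, threshold 0.05), with sex, genotype and lane tag as terms. Age was fitted without lane. Libraries with a standardized connectivity under -5 were left out. Standard errors are the fitted difference over the root of F. Ratios were tested by permuting sex over 100000 resamples with numpy in Python. The test was checked on simulated counts. Alternatives were DESeq2 1.42.0 (test and size factors), other scalings, filters and controls, lanes, a replicate block and leaving out each library. Replacement of single counts, done in the study, was not done. Marker and lipid microRNA lists were not run, as 0 of their names are paired with IDs. Members were taken by hairpin ID and not by a measured value. They and the lists were still chosen with earlier results of these data known. Every hairpin of the family is named in each comparison, and likeness names the nearest hairpin by Pearson correlation.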

Additional observations from a re-analysis of the deposited data

Results flagged for a closer look

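In 72 sets of 4 mice (24 groups for each of the 3 hairpins), 1 mouse stood apart from the other 3 of its group by Dixon's test. Chance flags about 1 in 20 such sets. It was Q20 female replicate 2 of 6 months, with 84506 CPM of mir-148a against 78770, 78997 and 79460 CPM in the others, a gap of 0.880 of the range. The value lies inside the range of the other females of that age.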

How the results depend on the processing

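The calls of sex and age for the 3 hairpins held under the other scalings, the other test, no abundance filter, all libraries kept, no lane term and the replicate block. The exceptions were fits within a single lane, on 8 to 27 libraries, and 1 fit without a library. Of 675 values under other settings 8 lost their call and 52 changed sign, and 0 of the 52 had an adjusted p under 0.05 in either fit. The calls lost were those of sex, at -0.28 (L6) and -0.14 (L7) for mir-148a at 6 months, -0.14 (L6) and -0.31 (L7) for mir-148a at 10 months, 0.092 (L7) and 0.022 (L5) for mir-148b at 10 months, and -0.36 (L7) and -0.50 (L5) for mir-152 at 10 months. Leaving out 1 library at a time gave 0.039 to 0.079 for age in mir-152, the lowest without Q20 male replicate 4 of 10 months, and kept every other call of sex and age. Whether replicate numbers pair the mice was not settled. Of 44 male and female pairs of the same number, 21 had a correlation of deviations over 0.1, with a median of 0.075. Of 92 libraries, 24 were most like one of their own number. Such values cannot show that mice were unrelated. With the replicate number as a block no call changed, and sex at 10 months was -0.42 for mir-152 and 0.19 for mir-148b. The sex differences of the ratios kept their direction and their call in the few settings run for them. These were all libraries kept, the replicate block and leaving out each library. At 6 months no library had been left out, so keeping all libraries changed nothing there. The ratios were not tested within lane tags. Depth limits mir-152 most, with 629 to 2556 counts per library, and these intervals cover counting and mouse-to-mouse error only.

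The changes of sign were in differences near 0 by genotype or interaction, on the log2 scale or as Z, and the cause was not tested. Without the lane term, the values were 0.015 for mir-148a in Q50 against controls at 6 months, 0.022 for mir-148b in Q50 against controls at 6 months, 0.0029 for mir-148b in Q92 against controls at 6 months, -0.081 for mir-148a in Q20 against its WT at 6 months, 0.015 for mir-148b in Q50 against its WT at 6 months, -0.015 for mir-148b in Q50 against controls at 10 months and 0.035 for mir-148b in Q50 against controls with ages combined (Z). With the size factors of DESeq2 in edgeR, the values were -0.011 for mir-152 in Q50 against controls at 6 months, -0.0065 for mir-148a in Q20 against its WT at 6 months and 0.020 for mir-148a in the sex by age term. With column totals in place of TMM, the values were -0.00028 for mir-152 in Q50 against controls at 6 months, -0.054 for mir-148a in Q20 against its WT at 6 months, -0.030 for mir-152 in Q20 against its WT at 6 months, -0.0050 for mir-148b in Q50 against controls at 10 months, 0.0064 for mir-148b in Q92 against controls at 10 months, 0.023 for mir-148b in Q140 against controls at 10 months, 0.0026 for mir-152 in Q140 against controls at 10 months, 0.016 for mir-148b in the CAG slope at 10 months, 0.059 for mir-148b in the CAG length by age term and 0.15 for mir-152 in Q140 against controls with ages combined (Z). With the Wald test of DESeq2, the values were -0.013 for mir-152 in Q50 against controls at 6 months, -0.0065 for mir-148a in Q20 against its WT at 6 months, 0.020 for mir-148a in the sex by age term and -0.0076 for mir-148a in Q92 against controls with ages combined (Z). Without the abundance filter, the values were -0.00090 for mir-152 in Q50 against controls at 6 months and -0.022 for mir-148a in Q20 against its WT at 10 months. Within lane L7, the values were -0.0036 for mir-152 in Q50 against controls at 6 months, -0.062 for mir-152 in Q140 against controls at 6 months, -0.0010 for mir-148a in the CAG slope at 6 months and -0.020 for mir-152 in the CAG slope at 6 months. Within lane L6, the values were 0.058 for mir-148b in Q92 against controls at 6 months, 0.0027 for mir-148a in Q140 against controls at 6 months, 0.078 for mir-148b in Q140 against controls at 6 months, 0.060 for mir-148b in the CAG slope at 6 months, 0.0092 for mir-152 in Q50 against controls at 10 months, 0.083 for mir-148b in Q92 against controls at 10 months and 0.018 for mir-148b in the CAG slope at 10 months. With Q20 as the only control, the values were -0.0052 for mir-152 in Q140 against controls at 6 months, 0.043 for mir-152 in Q50 against controls at 10 months, 0.0020 for mir-148b in Q92 against controls at 10 months, 0.014 for mir-152 in Q140 against controls at 10 months, 0.64 for mir-152 in Q50 against controls with ages combined (Z) and 0.15 for mir-152 in Q140 against controls with ages combined (Z). With the replicate number as a block, the values were -0.011 for mir-148a in Q20 against its WT at 6 months, -0.0040 for mir-148a in Q20 against its WT at 10 months and -0.042 for mir-148a in Q92 against controls with ages combined (Z). Without the WT libraries, the value was -0.032 for mir-148a in the CAG slope at 6 months. With all libraries kept, the values were 0.0094 for mir-148b in Q92 against controls at 10 months, -0.025 for mir-148a in Q20 against its WT at 10 months and 0.020 for mir-148a in the sex by age term. Within lane L5, the values were 0.0076 for mir-152 in Q140 against controls at 10 months and 0.0095 for mir-152 in the CAG slope at 10 months. Leaving out 1 library at a time gave -0.041 to 0.0065 for mir-148b in the CAG slope at 10 months, -0.00021 to 0.076 for mir-148a in the CAG slope at 6 months, -0.0018 to 0.025 for mir-152 in the CAG slope at 6 months, -0.064 to 0.012 for mir-148b in the CAG length by age term, -0.053 to 0.018 for mir-148b in Q140 against controls at 10 months, -0.092 to 0.0029 for mir-148a in Q140 against controls at 6 months. The ranges were -0.077 to 0.00069 for mir-148b in Q140 against controls at 6 months, -0.017 to 0.023 for mir-152 in Q140 against controls at 6 months, -0.020 to 0.034 for mir-148a in Q20 against its WT at 10 months, -0.022 to 0.024 for mir-148a in Q20 against its WT at 6 months, -0.011 to 0.045 for mir-152 in Q20 against its WT at 6 months, -0.061 to 0.018 for mir-148b in Q50 against its WT at 6 months. They were -0.043 to 0.0085 for mir-152 in Q50 against its WT at 6 months, -0.044 to 0.040 for mir-148b in Q50 against controls at 10 months, -0.031 to 0.011 for mir-152 in Q50 against controls at 10 months, -0.046 to 0.00060 for mir-148a in Q50 against controls at 6 months, -0.024 to 0.028 for mir-152 in Q50 against controls at 6 months, -0.59 to 0.29 (Z) for mir-152 in Q50 against controls with ages combined. The last ranges were -0.056 to 0.015 for mir-148b in Q92 against controls at 10 months, -0.84 to 0.82 (Z) for mir-148a in Q92 against controls with ages combined, -0.042 to 0.16 for mir-148a in the sex by CAG length term at 6 months, -0.076 to 0.019 for mir-148a in the sex by age term.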
